A study of Mus musculus with 23 samples.

Results

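The genes described here encode the enzymes that hydroxylate collagen chains inside the cell and crosslink collagen and elastin outside it. They are the 5 lysyl oxidases Lox, Loxl1, Loxl2, Loxl3 and Loxl4, the 3 lysyl hydroxylases Plod1, Plod2 and Plod3, and the prolyl 4-hydroxylase alpha subunits P4ha1 and P4ha2. They were chosen by gene name with their RPKM in the 6 RNA libraries already known, and all 10 are among the 24029 genes of the deposited table. RNA came from C3H10T1/2, a mouse mesenchymal stem cell line of C3H origin that can be turned into fat cells. Every culture had been grown with 8.3 nM human BMP7 for 3 days. Cells at day 0 are called pre-adipocytes, and those at day 7 mature adipocytes. The day 7 cells had received 5 µM DEX, 0.5 mM IBMX, 0.12 µg/ml insulin, 1 µM of a compound labelled Rosi and 1 nM T3 until day 2, and insulin, Rosi and T3 at the same doses from day 2 to day 7. Each day has 1 standard library, for which mRNA was enriched on oligo(dT) beads, and 1 library built with TELP, the library construction method under study, under the code N9. For day 7 there are also TELP libraries with the codes N9_ss and T18, which, like N9, are not spelled out. Every group thus holds 1 library, so replicate error is unknown throughout, and the labels do not tell whether libraries of the same day shared a culture.

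Collagen chains are modified in the endoplasmic reticulum before they fold into a triple helix. Prolyl 4-hydroxylases, made of an alpha subunit with the active site and a shared beta subunit (P4hb), hydroxylate prolines, which keeps the helix stable at body temperature. Lysyl hydroxylases modify lysines in the helix and at its ends. After secretion, the copper-dependent lysyl oxidases turn lysines and hydroxylysines into aldehydes that form the crosslinks of collagen fibres and elastin. Fat cells build a collagen coat around themselves, and the stiffness of this matrix is set in part by such crosslinks.

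Levels are given as RPKM, in which reads are divided by gene length and by the size of the library, so that levels of different genes can be compared. Differences are of log2(RPKM + 1), so those of low genes are understated. A gene counted as higher or lower when this difference was at least 1 in size and its mean over the 2 libraries at least 1 RPKM, and a gene listed at 0 in either library received no difference. No test was made, because each group holds 1 library and the 10 genes were chosen with these values known. Relative sequencing depth, read from the step between low values, was 0.985 in standard day 7, 1.57 in TELP N9 day 0, and 0.383, 0.400 and 0.331 in N9, N9_ss and T18 at day 7, with standard day 0 set to 1. The 10 most abundant genes held 7.56% to 32.8% of all RPKM in 5 libraries and 79.8% in T18, so T18 levels of most other genes are low as deposited. N9_ss repeats much of N9: of 13980 genes above 0 in both, 5434 had values in 1 common ratio within 0.1%, Loxl2 and Loxl4 among them. It was not used as a replicate. Where day 7 libraries are counted below, N9_ss is among them and does not stand as an observation apart from N9. At day 7 all 7 adipocyte markers were higher by either procedure, against 6.83% of all genes. The standard libraries had Fabp4, a fatty acid carrier, at 6.99 and 10253 RPKM. Of the preadipocyte and fibroblast markers 3 of 6 were lower in both, against 5.72% of all genes. In bulk RNA, fewer cells of a type and less RNA per cell cannot be told apart.

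The prolyl 4-hydroxylase alpha subunits exchanged their order during differentiation. P4ha1, the more widely expressed alpha subunit, had 36.1 RPKM in standard day 0 and 22.6 in standard day 7. The TELP libraries had 37.5 in N9 day 0, and 43.4, 45.9 and 11.7 in N9, N9_ss and T18 at day 7. P4ha2, the second alpha subunit, stood at 46.2 RPKM in standard day 0, 17.0 in standard day 7, 47.1 in TELP N9 day 0, and 19.1, 19.7 and 5.45 in N9, N9_ss and T18 at day 7. P4ha2 therefore stood above P4ha1 in both day 0 libraries and below it in all 4 day 7 libraries. As a ratio within a library, which no scaling factor per library can alter, P4ha1 over P4ha2 was 0.782 and 0.797 at day 0 in the standard and TELP N9 libraries. At day 7 it was 1.33 in standard, 2.27 in N9, 2.33 in N9_ss and 2.15 in T18. P4ha2 differed between day 7 and day 0 by -1.39 by the standard procedure and -1.26 with TELP N9, on the log2(RPKM + 1) scale. The standard value lay at percentile 2.78 of all genes compared and the TELP N9 value at percentile 21.7. P4ha1 differed by -0.66 by the standard procedure and 0.21 with TELP N9, so the library types gave it opposite signs as deposited and neither difference reached 1. With equal library totals the TELP N9 value was -0.30, and the signs were then the same. They stayed opposite under median of ratios scaling (-0.51 standard, 0.72 TELP N9) and under quantile scaling (-0.63 and 0.29).

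The stretches before the start sites of 4 genes are shown, of which 2, P4ha1 and P4ha2, exchanged their order between day 0 and day 7. The other 2 are Plod1, higher at day 7 in the TELP N9 libraries, and Loxl4, lower there. These stretches come from RefSeq (GRCm38.p6), whose promoter table matched 5 of the 10 genes by symbol. Each gives the 250 bases before the start. P4ha1 lies at chr10:59323046-59323295 (plus strand), P4ha2 at chr11:54100674-54100923 (plus strand), Plod1 at chr4:147936777-147937026 (minus strand) and Loxl4 at chr19:42612807-42613056 (minus strand). Capitals mark matches, on either strand, of ACGTG or GCGTG, the core letters bound by hypoxia inducible factors.
P4ha1 promoter: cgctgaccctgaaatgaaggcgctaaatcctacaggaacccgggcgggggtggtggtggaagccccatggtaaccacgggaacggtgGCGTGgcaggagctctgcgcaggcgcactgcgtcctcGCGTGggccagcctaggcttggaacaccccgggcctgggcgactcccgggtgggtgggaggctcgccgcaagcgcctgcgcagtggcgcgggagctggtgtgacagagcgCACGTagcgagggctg
P4ha2 promoter: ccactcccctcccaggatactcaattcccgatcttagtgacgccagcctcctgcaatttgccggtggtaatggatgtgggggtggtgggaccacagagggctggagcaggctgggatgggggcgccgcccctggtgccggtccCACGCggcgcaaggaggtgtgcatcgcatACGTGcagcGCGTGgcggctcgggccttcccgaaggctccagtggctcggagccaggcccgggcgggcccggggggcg
Plod1 promoter: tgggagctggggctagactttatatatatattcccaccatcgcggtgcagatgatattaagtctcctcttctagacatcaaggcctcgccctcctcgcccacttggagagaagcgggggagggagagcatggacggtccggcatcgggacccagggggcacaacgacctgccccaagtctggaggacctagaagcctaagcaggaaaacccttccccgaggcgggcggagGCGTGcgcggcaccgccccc
Loxl4 promoter: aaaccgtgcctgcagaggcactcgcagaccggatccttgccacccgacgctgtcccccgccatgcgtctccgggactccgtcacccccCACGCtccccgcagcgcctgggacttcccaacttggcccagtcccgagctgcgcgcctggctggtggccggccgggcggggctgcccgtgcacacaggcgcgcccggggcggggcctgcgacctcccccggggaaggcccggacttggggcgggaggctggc
P4ha1 holds 3 matches, at 163, 126 and 16 bases before the start, and P4ha2 holds 3, at 107, 78 and 69 bases. Plod1 holds 1 match, 20 bases before the start, and Loxl4 holds 1, at 162 bases. Plod3, whose sequence is not shown, holds 4. These motifs share the letters CGTG and can overlap each other on opposite strands. Of 32851 RefSeq promoter windows of the same length, 16.6% hold ACGTG, 28.2% GCGTG and 38.6% either of them. These windows were not matched for G and C content, which was 55.6% (Plod3) to 76.0% (Loxl4) in the 5 promoters. The shares are therefore no measure of enrichment. GGAATG, the core letters of TEAD factors, occurs in 12.6% of windows and in none of the 5. CAGAC, the core letters of SMAD factors, occurs in 42.2% of windows and in 2 of the 5, Plod1 and Loxl4. A match is a run of letters and no evidence of binding.

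The 3 lysyl hydroxylases went different ways. Plod1, which hydroxylates lysines of the collagen helix, stood at 27.1 RPKM in standard day 0, 24.6 in standard day 7 and, with TELP N9, 25.3 at day 0. At day 7 it stood at 78.0 in TELP N9, 86.4 in N9_ss and 9.77 in T18. As deposited it was thus nearly level in the first 3 libraries and highest in N9 and N9_ss, with T18 below all. Under median of ratios scaling the T18 level was 40.8, between 17.1 in standard day 7 and 69.5 in N9. The N9 level at day 7 was 3.08 times that at day 0. The difference between day 7 and day 0 was -0.13 by the standard procedure (0.01 under median of ratios scaling) and 1.59 with TELP N9. Plod2, which hydroxylates the lysines at the chain ends and so steers the type of crosslink, stood at 53.3 RPKM in standard day 0, 38.6 in standard day 7, 46.7 in TELP N9 day 0, and 22.7, 22.2 and 7.43 in N9, N9_ss and T18 at day 7. As deposited, all 4 day 7 levels lay below both day 0 levels. That of T18 depended on scale: under median of ratios scaling it was 31.0, above standard day 7 (26.8) and N9 (20.2). The differences of Plod2 between day 7 and day 0 were -0.45 (standard) and -1.01 (TELP N9), and the latter was -0.49 under median of ratios scaling. Plod3, which also attaches sugars to hydroxylysine, had 31.2 RPKM in standard day 0 and 37.3 in standard day 7, against 31.8, 36.2 and 38.5 in TELP N9 day 0, N9 day 7 and N9_ss. Apart from T18, at 4.51 RPKM, it was the steadiest of the hydroxylases, with differences of 0.25 by the standard procedure and 0.18 with TELP N9 (-0.32 with equal library totals).

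Plod2 held 47.7% (standard) and 44.98% (TELP N9) of the summed RPKM of the 3 lysyl hydroxylases at day 0. Its share at day 7 was 38.4% in standard, 16.6% in N9, 15.1% in N9_ss and 34.2% in T18. Plod1 held 24.3% and 24.4% in the day 0 libraries and 24.5% in standard day 7. In N9, N9_ss and T18 its share was 57.0%, 58.7% and 45.0%. All 3 TELP libraries of day 7 thus had Plod1 as the leading lysyl hydroxylase, while Plod2 led in the standard library of that day. The ratio of Plod1 to Plod2 was 0.509 and 0.542 at day 0, 0.637 in standard day 7, 3.44 in N9, 3.88 in N9_ss and 1.32 in T18.

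**Figure D1:**
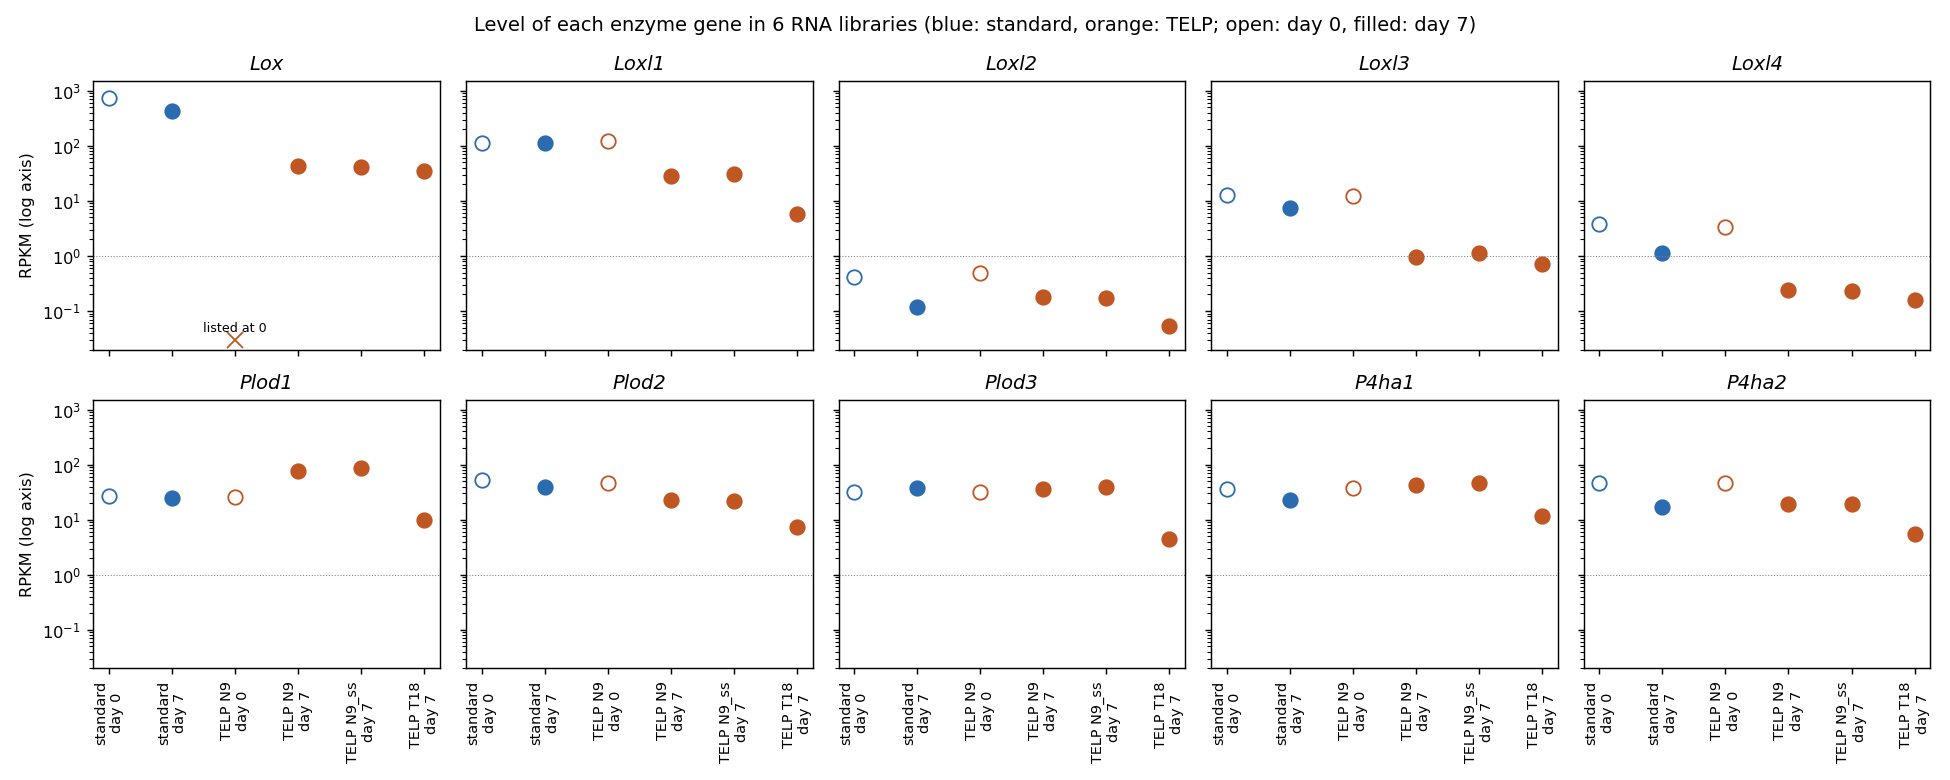
RPKM (log axis) of each of the 10 genes in the 6 RNA libraries, 1 point per library, with no error because each group holds 1 library; the dotted line marks 1 RPKM and a cross marks a gene listed at 0. P4ha2 is lower at day 7 in every library, Plod1 is highest in N9 and N9_ss at 78.0 and 86.4 RPKM, and Lox is listed at 0 in TELP N9 day 0.

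Lox was by far the most abundant of the 10 genes in the standard libraries. Lox, the founding lysyl oxidase, stood at 749.6 RPKM in standard day 0, rank 38 of the 24029 genes, and at 425.6 in standard day 7, rank 88. At day 7 it was at 42.9 RPKM in TELP N9, 41.9 in N9_ss and 34.2 in T18, and TELP N9 day 0 listed it at 0. The standard day 7 level was 9.91 times that of N9. From day 0 to day 7 the standard libraries differed by -0.82, at percentile 9.87 of all genes compared and short of the size that counted as lower, though it was -1.01 under quantile scaling.

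The 0 of Lox in TELP N9 day 0 can be a failed estimate, and no difference was formed with it. In that library 4 of 5314 protein-coding genes with at least 10 RPKM in standard day 0 were listed at 0. Lox had the highest standard level among them, followed by Canx, an endoplasmic reticulum chaperone used by all cells, at 167.9 RPKM, and Gspt1, a translation termination factor, at 27.8. In the reverse direction 2 of 5312 protein-coding genes at 10 RPKM or more in TELP N9 day 0 were listed at 0 in standard day 0. The change of Lox during differentiation therefore rests on the standard libraries.

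Loxl1, the lysyl oxidase most closely tied to elastic fibres, was second. It stood at 113.8 RPKM in standard day 0, 112.8 in standard day 7, 121.0 in TELP N9 day 0, and 28.3, 31.4 and 5.89 in N9, N9_ss and T18 at day 7. Both day 0 libraries and standard day 7 lay within 112.8 to 121.0 RPKM, and the day 7 TELP libraries lay far below. Its difference between day 7 and day 0 was -0.01 by the standard procedure and -2.06 with TELP N9. Loxl3, a lysyl oxidase with scavenger receptor domains, stood at 12.6 RPKM in standard day 0, 7.50 in standard day 7, 12.3 in TELP N9 day 0, and 0.945, 1.14 and 0.713 in N9, N9_ss and T18 at day 7. Its difference was -0.68 (standard) and -2.77 (TELP N9), and in TELP N9 the day 0 level was 13.0 times that of day 7. Loxl4, another member with scavenger receptor domains, stood at 3.88 RPKM in standard day 0, 1.12 in standard day 7, 3.39 in TELP N9 day 0, and 0.243, 0.232 and 0.160 in N9, N9_ss and T18 at day 7. Its difference was -1.20 by the standard procedure and -1.82 with TELP N9. On the RPKM scale the standard day 0 level was 3.47 times and the TELP N9 day 0 level 14.0 times that of day 7. The TELP N9 ratios of Loxl3 and Loxl4 rest on day 7 levels under 1 RPKM at a relative depth of 0.383, so their size is uncertain. Loxl2 was under 1 RPKM in all 6 libraries, from 0.0533 in T18 to 0.495 in TELP N9 day 0, and was counted nowhere.

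The order of the 5 lysyl oxidases was Lox, Loxl1, Loxl3, Loxl4 and Loxl2 in the standard libraries and in all 3 day 7 TELP libraries, with TELP N9 day 0 as the exception through its 0 for Lox. Lox and Loxl1 together made up nearly the whole sum. Lox held 85.2% of it in standard day 0, 77.8% in standard day 7, and 59.1%, 56.0% and 83.4% in N9, N9_ss and T18 at day 7. Among the other 4 genes, Loxl1 held 86.4% to 95.4% in the 6 libraries.

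Counted over the comparison of day 7 with day 0, 2 of 9 genes measured in the standard libraries were lower, Loxl4 and P4ha2, against 6.1% of all 11178 genes compared. None was higher, against 7.63% of all genes. In the TELP N9 libraries 5 of 8 were lower (Loxl1, Loxl3, Loxl4, Plod2 and P4ha2), where 29.2% of 11106 genes were lower. Plod1 was the only one higher, where 13.3% were. Loxl4 and P4ha2 were lower in both library types, 2 of 8 genes, against 5.72% of all 10818 genes with both differences. None was higher in both, against 6.83%. In N9 day 7, Loxl3 and Loxl4 were under 1 RPKM (0.945 and 0.243) and passed the filter only through their day 0 levels. With a filter at 5 RPKM, 1 gene was lower in both types, P4ha2. The median of the 10 genes' differences was -0.66 in the standard libraries over 9 genes and -1.13 in TELP N9 over 8, and that of all genes was -0.18 and -0.44. These shares describe genes chosen with the values known, and nothing further is read from them. With median of ratios scaling the medians of all genes were -0.05 and 0.04. Under that scaling P4ha2 was lower in the standard libraries (-1.23) and not in TELP N9 (-0.73), Loxl4 lower in TELP N9 (-1.34) and not in standard (-0.95), and so no gene was lower in both.

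**Figure D2:**
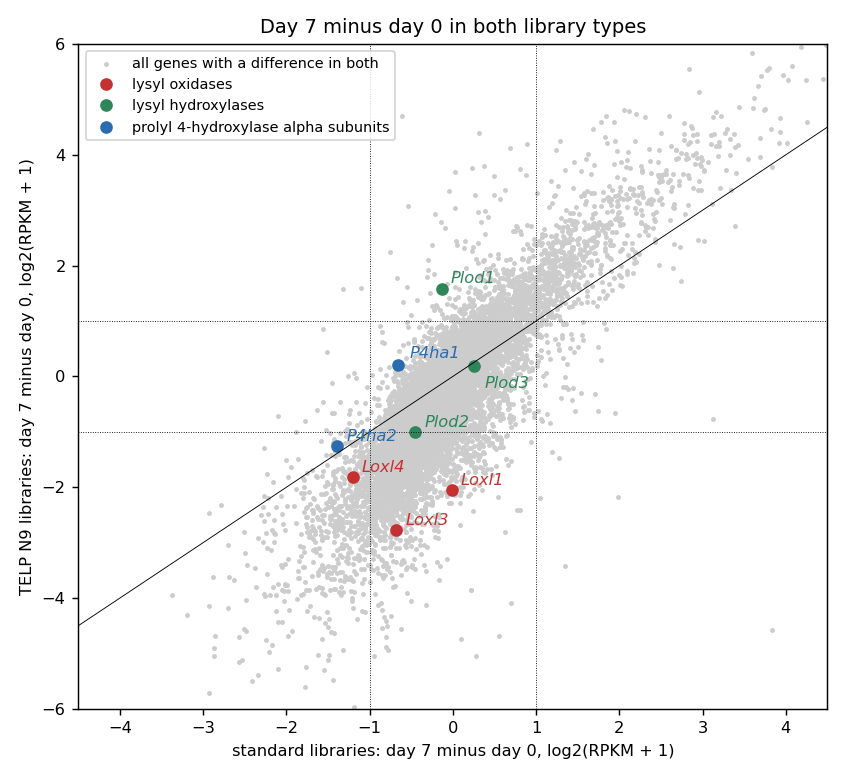
Day 7 minus day 0 on the log2(RPKM + 1) scale in the standard (x axis) and TELP N9 (y axis) libraries, with all genes in grey, the 8 enzyme genes that have both differences in colour, dotted lines at 1 and -1 and the line of equal differences; points beyond the axes are not drawn. P4ha2 and Loxl4 lie below -1 on both axes, Plod1 lies at -0.13 and 1.59, and Loxl1 at -0.01 and -2.06.

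The library procedures were then compared on the same day. At day 0 the 8 genes that could be compared were nearly alike, with differences (TELP N9 minus standard) from -0.19 for Plod2 to 0.09 for Loxl1. Lox, listed at 0, was not among them. None of the 8 was lower or higher, against 0.269% and 1.56% of 11152 genes. At day 7 the same procedures gave lower levels in TELP N9 for Lox (-3.28), Loxl3 (-2.13) and Loxl1 (-1.96), 3 of 8 genes against 16.5% of 10943. Plod1 was higher by 1.62, 1 of 8 against 7.22%, and by 0.87 with equal library totals, short of the size that counts. P4ha1 followed at 0.91, P4ha2 was at 0.16, Plod3 at -0.04 and Plod2 at -0.74. Close values at day 0 were thus followed by a wide spread at day 7. How far this is due to the procedure or to the cells was not tested, and the 2 cannot be told apart with 1 library per group.

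Differences of the change itself, TELP N9 minus standard, were -2.09 for Loxl3, -2.04 for Loxl1 and 1.72 for Plod1. The median was -0.31 over the 8 genes and -0.27 over all 10818, of which 16.4% were at or below -1 and 4.48% at or above 1. As deposited, the change of P4ha2 differed by 0.13 and that of Plod3 by -0.07. Other scalings moved them apart: under median of ratios P4ha2 was at -1.23 (standard) and -0.73 (TELP N9) and Plod3 at 0.39 and 0.69, and with equal library totals Plod3 was at 0.27 and -0.32.

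Genes induced by low oxygen differed between the same libraries. P4ha1, P4ha2, Plod1 and Plod2 are known, as background, to be raised by hypoxia inducible factors in many cells. Of a list of 12 other hypoxia genes, none of the 11 compared at day 0 was higher or lower in TELP N9, against 1.56% and 0.269% of all genes. At day 7, 9 of 12 were higher in TELP N9 than in standard, against 7.22% of all genes. The list median was 2.49, where that of all genes was -0.23. Pgk1, a glycolytic enzyme, had 84.7 RPKM in standard day 7 and 976.5 in N9 day 7. Bnip3, a mitophagy receptor, was at 56.3 and 430.1 RPKM. Car9, a carbonic anhydrase used as a hypoxia marker, was at 0.0803 and 9.52 RPKM. Day 7 against day 0 gave 8 of 12 higher and 2 lower in TELP N9, against 13.3% and 29.2% of all genes. The 2 lower were Hif1a (-1.12) and Arnt (-1.25), the subunits of the factor itself. In the standard libraries 2 of 10 were higher and 2 lower, against 7.63% and 6.1% of all genes. The 2 lower there were the glucose transporter Slc2a1 (-1.32) and Ndrg1 (-1.56). Those higher in both were Bnip3 (1.83 standard, 4.70 TELP N9) and Vegfa (1.34 and 2.80), a growth factor for blood vessels. Hif1a itself, the oxygen-regulated subunit, had 42.6 RPKM in standard day 7 and 21.4 in N9 day 7. Egln3, an oxygen-sensing prolyl hydroxylase of the same enzyme class as the collagen hydroxylases, had 0.741 RPKM in standard day 7 and 26.0 in N9 day 7. In the same comparison at day 7, Plod1 was at 1.62, P4ha1 at 0.91, P4ha2 at 0.16 and Plod2 at -0.74. What part low oxygen had in the values of any of these enzyme genes was not tested.

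T18 was read against the other day 7 libraries with care for its scale. As deposited, 6 of 7 genes were lower in T18 than in N9 by at least 1 log2 unit, but so were 83.4% of 9595 genes, whose median was -1.76. None was higher, against 0.552%. Lox, at -0.32, was the exception. Under median of ratios scaling, which set the median of all genes at -0.05, none of 8 genes was lower, against 14.4% of 10371 genes. Lox (1.87) and Loxl3 (1.11), the latter under the filter as deposited, were higher, 2 of 8 against 12.7%. Plod1 (-0.75) and Plod3 (-0.74) then stayed below N9, Loxl1 was at -0.04, and Plod2 (0.59), P4ha2 (0.40) and P4ha1 (0.34) turned positive.

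In a comparison added after the values were seen, N9 and T18 of day 7 were set with the same scaling against the standard library of that day, which they share. Plod1 was higher by 1.96 in N9 and by 1.21 in T18, and P4ha1 by 1.25 and 1.59. Over all genes 12.7% were higher in N9 and 14.9% in T18. Lox was at -2.92 and -1.04 and Loxl1 at -1.59 and -1.63, where 9.4% of genes were lower in N9 and 12.1% in T18. Loxl3 was at -1.75 in N9 and -0.64 in T18. P4ha2 was at 0.50 and 0.89, while Plod2 (-0.39 and 0.20) and Plod3 (0.31 and -0.44) had opposite signs in N9 and T18. Of the 12 hypoxia genes 9 were higher in either library, with medians of 2.83 and 1.98. Against N9, N9_ss differed by at most 0.15 log2 units in each of the 8 genes compared. None of the 8 was lower or higher there, against 0.00968% and 0.0194% of all genes.

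**Figure D3:**
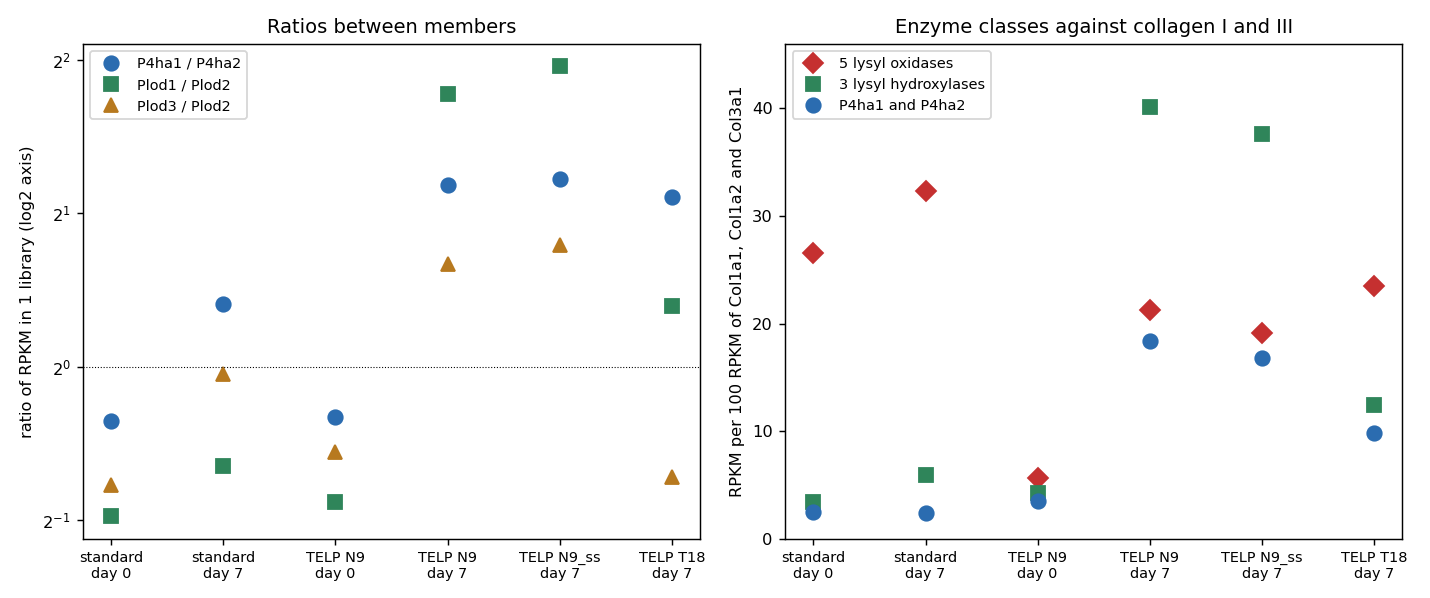
Left, ratios of RPKM between enzyme genes within each library (log2 axis, dotted line at equal levels); right, summed RPKM of each enzyme class per 100 RPKM of Col1a1, Col1a2 and Col3a1, 1 point per library. P4ha1 over P4ha2 is under 1 at day 0 and over 1 in all 4 day 7 libraries; the lysyl oxidase point of TELP N9 day 0 is low (5.64) because Lox is listed at 0 there.

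Type I and III collagen, the main substrates, were lower in all 4 day 7 libraries than in both day 0 libraries. Col1a1 and Col1a2, the chains of type I collagen, were at 1114 and 1252 RPKM in standard day 0 and at 549.2 and 649.2 in standard day 7. Their levels were 885.1 and 962.2 in TELP N9 day 0 and 117.7 and 107.8 in N9 day 7. Col3a1, type III collagen, went from 944.8 to 495.6 RPKM in the standard and from 584.3 to 115.5 in the TELP N9 libraries. Of the fibrillar collagens and elastin, 3 of 9 were lower at day 7 in both types, against 5.72% of all genes. They were Col2a1 (-2.23 and -1.77), Col11a1 (-1.68 and -3.35) and Col1a1 (-1.02 and -2.90). Col2a1 in standard and N9 day 7 (0.243 and 0.516 RPKM) and Col11a1 in N9 day 7 (0.539) passed the filter through day 0. Per 100 RPKM of type I and III collagen, the P4ha1 and P4ha2 sum was 2.49 in standard day 0, 2.34 in standard day 7 and, with TELP N9, 3.48 at day 0. It was 18.3, 16.8 and 9.83 in N9, N9_ss and T18 at day 7. The lysyl hydroxylase sum was 3.37, 5.94 and 4.27 in the first 3 of these libraries and 40.2, 37.6 and 12.4 in the others. Lysyl oxidases stood at 26.6 and 32.3 in the standard libraries and between 19.1 and 23.4 in the day 7 TELP libraries. Per collagen, both hydroxylase classes were thus highest in the 3 day 7 TELP libraries, and the lysyl oxidases were highest in standard day 7. The sum of both hydroxylase classes was 194.0 RPKM in standard day 0, 188.5 in TELP N9 day 0, 199.4 in N9 day 7 and 38.9 in T18. The collagen sum was 3311, 2432, 341.0 and 175.0 RPKM in these libraries. The higher hydroxylase values per collagen thus mainly reflect the lower collagen sum.

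Medians of the other gene lists of collagen synthesis were below those of all genes in both library types. Over all genes, 5.72% were lower and 6.83% higher at day 7 in both types, and the counts below stand against these shares. Among other modifying enzymes, 1 of 8 was lower at day 7 in both types, P4ha3, a further prolyl 4-hydroxylase alpha subunit, which went from 20.2 to 6.86 RPKM in the standard and from 17.9 to 0.505 in the TELP N9 libraries. Leprel2, a prolyl 3-hydroxylase (-0.94 and -2.61), and Crtap, another gene of that list (-0.75 and -2.17), came next. P4hb, the shared beta subunit, differed by -0.16 and -0.33. Of the chaperones and secretion factors, 1 of 14 was lower in both, Sec24d, a coat protein of procollagen transport (-1.07 and -1.12), followed by Ppib (-0.78 and -1.55) and Fkbp10 (-0.75 and -3.23), which both turn proline bonds of procollagen. Serpinh1, the main collagen chaperone, was at -0.36 and -1.50. In procollagen processing, 1 of 6 was higher in both, Tgm2, a transglutaminase that crosslinks matrix proteins by another route (1.69 and 3.82), and 1 was lower, Adamts14, a procollagen protease (-1.03 and -1.58). Bmp1, the protease that activates Lox, was at -0.83 and -2.95. Among proteins that bind lysyl oxidases, 1 of 7 was lower in both, Ltbp4 (-1.59 and -2.79), and Fbln5, which brings Loxl1 to elastic fibres, was at -0.91 and -3.45. In N9 day 7, P4ha3, Adamts14 and Ltbp4 were under 1 RPKM (0.505, 0.401 and 0.482) and passed the filter through day 0. With the standard value first and TELP N9 second, list medians were -0.46 and -1.97 for the modifying enzymes, -0.51 and -1.41 for chaperones, -0.56 and -2.26 for processing, -0.93 and -2.15 for collagens and elastin, and -0.70 and -2.79 for the binding proteins.

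**Figure D4:**
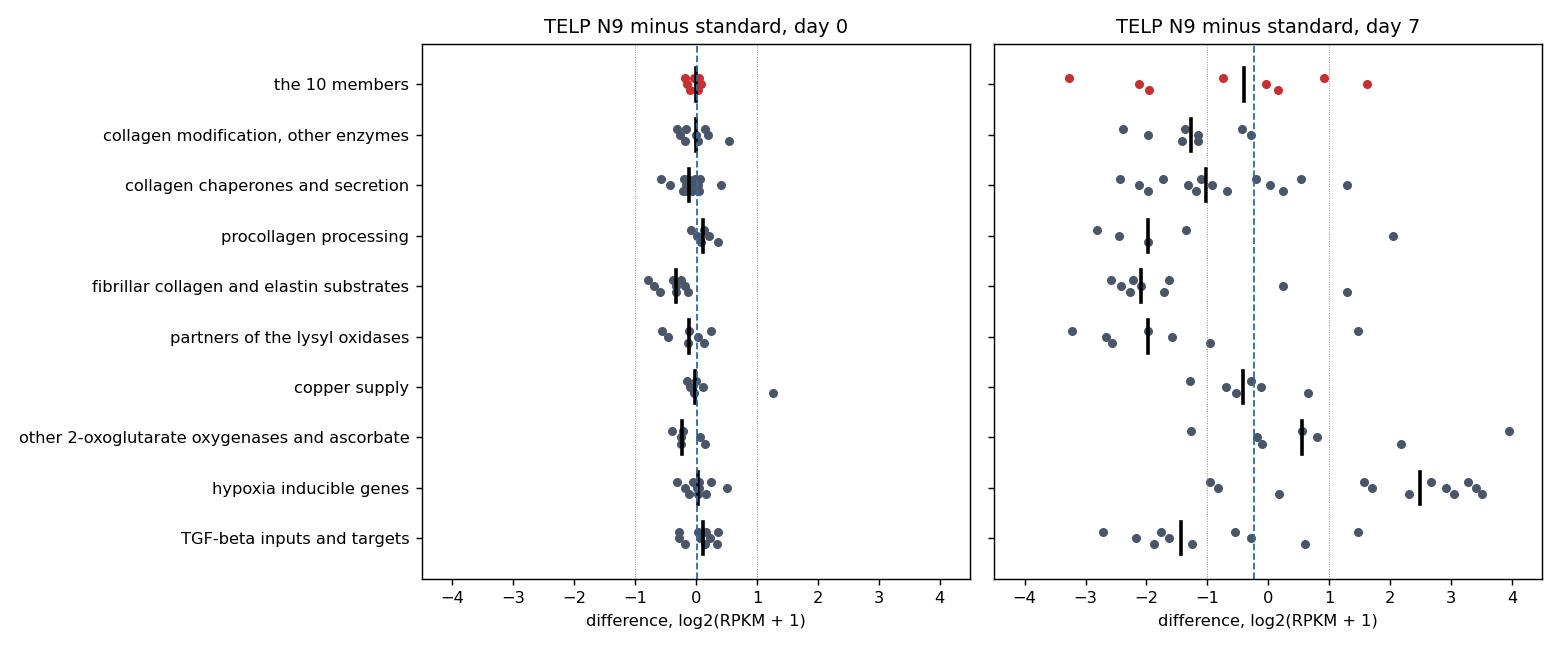
TELP N9 minus standard on the log2(RPKM + 1) scale at day 0 (left) and day 7 (right) for the 10 enzyme genes (red) and 9 gene lists, 1 point per gene compared, with the list's median as a black bar, the median of all genes as a dashed line and dotted lines at 1 and -1. At day 0 the enzyme genes lie from -0.19 to 0.09, and at day 7 from -3.28 to 1.62, while the hypoxia list has a median of 2.49.

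The supply of cofactors was mixed. Lysyl oxidases need copper, and 0 of 6 copper genes was lower or higher at day 7 in both types, against 5.72% and 6.83% of all genes. Atp7a, the pump that loads copper into secreted enzymes, was at 13.7 and 8.11 RPKM in the standard and 13.3 and 2.73 in the TELP N9 libraries (-0.69 and -1.94). Slc31a1, the copper importer, had differences of 0.47 and 0.49. The hydroxylases need ascorbate, and Slc23a2, an ascorbate transporter, was lower in both types (-1.20 and -1.53), the 1 of 6 in its list.

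As deposited, markers of other lineages that make crosslinked matrix were low or lower at day 7. Of 7 osteoblast markers only Runx2 could be compared, and it was lower in both types (-1.20 and -2.49). Summed, the osteoblast markers stood at 16.6 and 18.2 RPKM at day 0 and between 2.06 and 6.47 at day 7, with Ibsp listed at 0 throughout. Acta2, the smooth muscle and myofibroblast actin, had 109.2 RPKM in standard day 0 and 31.8 in standard day 7, against 92.0 and 12.3 with TELP N9. The 5 smooth muscle markers, mostly Acta2, summed to 98.9 and 115.1 RPKM at day 0 and 3.20 to 38.1 at day 7. Tagln, the only other one compared, differed by -0.01 (standard) and -0.32 (TELP N9). Des, too low to be compared, was at 0.0154 RPKM in TELP N9 day 0 and 1.27 in N9 day 7. The 5 chondrocyte markers, mostly Sox9, summed to 53.3 and 77.3 RPKM at day 0 and 3.33 to 19.5 at day 7. The 6 preadipocyte and fibroblast markers summed to 251.6 and 286.9 RPKM at day 0, 158.0 in standard day 7 and 40.8 to 43.5 in the day 7 TELP libraries. Pdgfra, a growth factor receptor in that list, had 52.0 RPKM in standard day 7 and 4.65 in N9 day 7. Skeletal muscle markers summed to 1.41 to 36.6 RPKM over the 6 libraries, endothelial markers to 0.0201 to 11.3 and macrophage and leukocyte markers to 0.513 to 4.70. The part of any of these cells in the levels of Lox, Loxl1 and the collagens was not tested.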

How the data were processed

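RNA of 6 libraries was used, and the 17 chromatin immunoprecipitation samples were not analysed here. The deposited table holds RPKM, which the authors computed per gene, 1 column per library. Bowtie2, TopHat, Cufflinks and the mm9 build are named per the submitters' processing notes. Versions, settings, annotation, strand handling and the read totals were not given in the sources used here, so depth is relative only and no interval is given. Copies of a gene may share reads.

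Differences of log2(RPKM + 1) were formed over the whole table with Python 3.11.15 and pandas 2.3.3. Genes under a mean of 1 RPKM or listed at 0 in either library were left out. The calls were run on simulated data with large planted changes and counting error only. Error between replicates or procedures was not simulated, so the run does not tell how reliable the calls are here. Relative depth is the commonest ratio among genes under 0.3 RPKM in standard day 0 and 0.6 RPKM in the other library. Alternatives were pseudocount, filter, scaling and the TELP library used. All 10 genes are described, with up to 3 genes per list, those whose smaller difference over the library types was largest, plus type I and III collagen chains. Genes, lists and rules were chosen with earlier results of these data known, and genes outside the naming rule (such as Pgk1, Car9, Egln3, P4hb, Serpinh1, Hif1a, Acta2 and Pdgfra) after their values were seen. A gene of the TGF-beta list is not reported here by name.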

Additional observations from a re-analysis of the deposited data

Results flagged for a closer look

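Plod1 and P4ha1 were the genes, among the 8 with both differences, whose day 7 minus day 0 difference had opposite signs in the 2 library types. Plod1 was at -0.13 by the standard procedure and 1.59 with TELP N9. P4ha1 was at -0.66 by the standard procedure and 0.21 with TELP N9. With equal library totals P4ha1 was at -0.30 with TELP N9, and its signs no longer differed. Under median of ratios scaling Plod1 was at 0.01 by the standard procedure, and its signs no longer differed. Under median of ratios P4ha1 kept opposite signs (-0.51 standard, 0.72 TELP N9), as did Plod1 with equal totals (-0.12 and 1.08). Under quantile scaling both kept them, P4ha1 at -0.63 and 0.29 and Plod1 at -0.07 and 1.63. The difference between library types was not tested, since each rests on 1 library per day.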

How the results depend on the processing

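No paired analysis was possible because each RNA group holds 1 library, and the samples that share replicate numbers are chromatin libraries without a column in the table. The 2 genes lower at day 7 in the standard libraries became 1 under a filter at 5 RPKM and 1 under median of ratios, and the 2 lower in both types became 1 and 0. Quantile scaling gave 3 in the standard libraries, with Lox at -1.01. In TELP N9 the 5 lower became 3 under median of ratios and 8 with T18 in place of N9. The 1 higher became 0 with T18, and 2 when genes listed at 0 were kept, a setting added after seeing the data, which also gave 1 gene (Lox) lower in TELP N9 at day 0. The TELP N9 median of -1.13 was -0.61 under median of ratios, -0.998 under quantile scaling, -1.63 under equal totals and -2.54 with T18. At day 7, TELP N9 minus standard gave 7 lower with T18 in place of N9. The 1 higher became 2 under median of ratios, 0 under equal totals and 0 with T18. The 6 genes lower in T18 than N9 became 0 under median of ratios and 0 under quantile scaling, each with 2 higher.

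With T18 in place of N9, signs turned in the day 7 minus day 0 difference for Plod1 (-1.29), Plod3 (-2.57) and P4ha1 (-1.60), and at day 7 against standard for Plod1 (-1.25), P4ha1 (-0.89) and P4ha2 (-1.48). In T18 minus N9, median of ratios and quantile scaling turned Lox (1.87 and 1.60), Plod2 (0.59 and 0.60), P4ha1 (0.34 and 0.31) and P4ha2 (0.40 and 0.45), and quantile scaling turned Loxl1 (0.0536). In T18 the 10 most abundant genes held 79.8% of all RPKM. The cause of the signs turned with T18, and of the other turned or lost calls, was not tested. The balance of all calls moved with scaling: of genes called at day 7 against day 0, 55.6% (standard) and 31.4% (TELP N9) were higher, and under median of ratios 67.1% and 54.6%. Equal totals gave 16.7% in TELP N9.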

Other observations

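Inputs and targets of TGF-beta, a growth factor known to raise Lox in fibroblasts, were lower at day 7 by their medians. Of 10 genes, 4 were lower and 1 was higher in both library types, against 5.72% and 6.83% of all genes. The list medians were -0.61 by the standard procedure and -1.74 with TELP N9. Tgfb2, a ligand, went from 71.6 to 14.7 RPKM in the standard and from 75.1 to 1.41 in the TELP N9 libraries. Tgfbi, a secreted target, differed by -2.70 and -4.18.

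Among 7684 genes averaging 5 RPKM or more in the 5 libraries other than N9_ss, those closest to P4ha2 in pattern were Cyr61, a matricellular protein (root mean square difference 0.10 log2 units), Ets2, a transcription factor (0.11), and Actb, cytoplasmic actin (0.11). Cyr61 was at 29.1 RPKM in standard day 0, 10.2 in standard day 7, 28.4 in TELP N9 day 0 and 9.85 in N9 day 7. Closest to Plod3, the gene with the highest standard difference, were Herpud1 (0.04), Mrrf (0.05) and Tstd2 (0.06). For Lox, the 0 in TELP N9 day 0 set the pattern, and the closest were Canx (1.24), Gspt1 (1.78) and Mir3060 (2.00), all listed at 0 there. Without that library, a setting added after seeing the data, they were Pdgfra (0.12), Phldb2 (0.14) and C1ra (0.14).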
